A study of Mus musculus with 2 samples.

Results

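The 1 kb upstream of microRNA genes was examined in RNA from cultured mouse B cells. A window was taken as a member where its gene symbol began with Mir and a digit, or with Mirlet7, which gave 623 of 23288 windows. Of these symbols, Mir17hg and Mir22hg name host transcripts and not microRNA genes. The study compared 1 library of Nedd4+/+ with 1 library of Nedd4-/- splenic B cells, both from fetal liver chimeric mice, whose blood cells descend from transplanted fetal liver, on a B6:129 background backcrossed to B6. Nedd4 encodes a ubiquitin ligase. Both cultures were kept for 72 hours with lipopolysaccharide (LPS), a bacterial activator of B cells, and interleukin 4 (IL-4), a pair of stimuli used to induce switching of antibody class to IgG1. Total RNA was sequenced after removal of ribosomal RNA, so unspliced and noncoding transcripts were kept. There was no replicate of either genotype. No test of genotype was therefore possible, and every difference below is a difference between these libraries.

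MicroRNAs are short RNAs that bind messenger RNAs through their seed, the bases near the 5′ end, and lower their stability and translation. They are cut from longer primary transcripts. Drosha with Dgcr8 releases a hairpin in the nucleus, Xpo5 exports it, Dicer1 trims it, and an Argonaute protein carries the mature strand. Many hairpins lie in introns or exons of a host gene and are transcribed with it, and neighbouring hairpins can share one primary transcript. In B cells, miR-155, miR-150, miR-142 and the miR-17-92 cluster are known regulators of activation, growth and antibody responses. RNA in the window before a hairpin reads the primary transcript or the host gene. It does not read the mature microRNA: mature sequences of the members were 16 to 27 nt long, and the sequencing reads were 101 nt.

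Mature sequences of selected microRNA families with well covered windows are shown from RefSeq (GRCm38.p6), grouped by seed, because several loci with separate primary transcripts give microRNAs with the same seed. Capitals mark the seed, bases 2 to 8 from the 5′ end. The first set holds microRNAs of activated lymphocytes and miR-7a, whose seeds differ from each other.
miR-21a-5p: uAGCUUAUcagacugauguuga
miR-155-5p: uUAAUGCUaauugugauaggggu
miR-142a-3p: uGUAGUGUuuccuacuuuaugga
miR-7a-5p: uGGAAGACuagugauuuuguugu

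The next set comes from the pair of clusters that hold miR-15 and miR-16, which share a seed and which are known to restrain the cell cycle.
miR-15a-5p: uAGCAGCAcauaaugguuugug
miR-15b-5p: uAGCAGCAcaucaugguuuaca
miR-16-5p: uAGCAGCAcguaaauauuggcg

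The miR-17-92 cluster and its relative in Mcm7 give microRNAs of 4 seeds. The first 4 lines share a seed, miR-18a has one of its own, and the last 2 pairs each share another.
miR-17-5p: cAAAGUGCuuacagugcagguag
miR-20a-5p: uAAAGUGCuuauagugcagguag
miR-106b-5p: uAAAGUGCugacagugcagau
miR-93-5p: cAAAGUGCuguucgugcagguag
miR-18a-5p: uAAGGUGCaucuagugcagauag
miR-19a-3p: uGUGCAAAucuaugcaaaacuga
miR-19b-3p: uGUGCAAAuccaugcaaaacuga
miR-92a-3p: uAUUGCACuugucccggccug
miR-25-3p: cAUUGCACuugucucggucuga

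The let-7 microRNAs shown all have the same seed.
let-7a-5p: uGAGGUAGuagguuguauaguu
let-7d-5p: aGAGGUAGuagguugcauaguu
let-7f-5p: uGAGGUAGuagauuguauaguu

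The hairpins of Mir155 (chr16:84714140-84714204, plus strand), Mir5114 (chr19:44303171-44303231, plus strand) and Mir704 (chr6:47803576-47803652, minus strand) are shown whole, with the mature arm in capitals. Mir155 had one of the highest windows among lymphocyte microRNAs, and Mir5114 and Mir704 had the lower Nedd4-/- levels that stood out most from counting error. Coordinates are those of GRCm38.p6 and not of mm9, the build named for the deposited values.
Mir155: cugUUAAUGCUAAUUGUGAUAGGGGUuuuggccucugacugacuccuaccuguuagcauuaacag
Mir5114: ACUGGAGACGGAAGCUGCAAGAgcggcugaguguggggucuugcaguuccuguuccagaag
Mir704: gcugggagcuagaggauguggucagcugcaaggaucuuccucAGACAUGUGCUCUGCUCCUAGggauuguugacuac

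Levels are in RPKM, read bases per kilobase scaled to the library, and all windows are 1 kb long. Wherever 2 values are given for a window or gene, the first is that of the Nedd4+/+ and the second that of the Nedd4-/- library. Depth amounted to 8.40 and 6.17 gigabases, so that 1 read pair over a window was worth 0.0241 and 0.0328 RPKM. In the gene values, all 10 B cell markers were above 1 RPKM in both libraries (Pax5 at 35.6 and 24.5). Summed levels of other markers were low: 10 T cell markers came to 2.55 and 3.83 RPKM, 10 myeloid markers to 3.12 and 4.78, 6 natural killer cell markers to 0.825 and 1.48, 7 erythroid and megakaryocyte markers to 3.22 and 3.08, and 7 stromal and endothelial markers to 2.94 and 2.82. None of these markers was listed at 0. Nedd4 stood at 7.59 and 1.95 RPKM. Xist stood at 23.7 and 0.0958 RPKM and the Y-linked Ddx3y at 2.63 and 10.6, so expression of sex-linked genes differed along with the genotype and the 2 cannot be told apart. In such bulk RNA, fewer cells of a type and less RNA per cell cannot be told apart either.

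Most windows held little RNA. The median over the 623 members was 0.192 and 0.303 RPKM, and 123 and 120 windows reached 1 RPKM. The 10 highest windows held 51.8% and 48.9% of the summed level. At 0 stood 26 and 16 windows, where 3 read pairs, the number a count of 0 still allows, equal 0.0722 and 0.0983 RPKM. A mean of at least 0.2 RPKM over both libraries, the minimum used for comparisons, was reached by 372 members (59.7%), against 50.8% of all 23288 windows. For windows of silent genes, those under 0.2 RPKM in both libraries, the median was 0.0481 and 0.115 RPKM over 4545 windows. The 191 microRNA windows among these had medians of 0.0722 and 0.153 RPKM. The floor of low windows was thus higher in the Nedd4-/- library, and low windows are read against it.

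**Figure D1:**
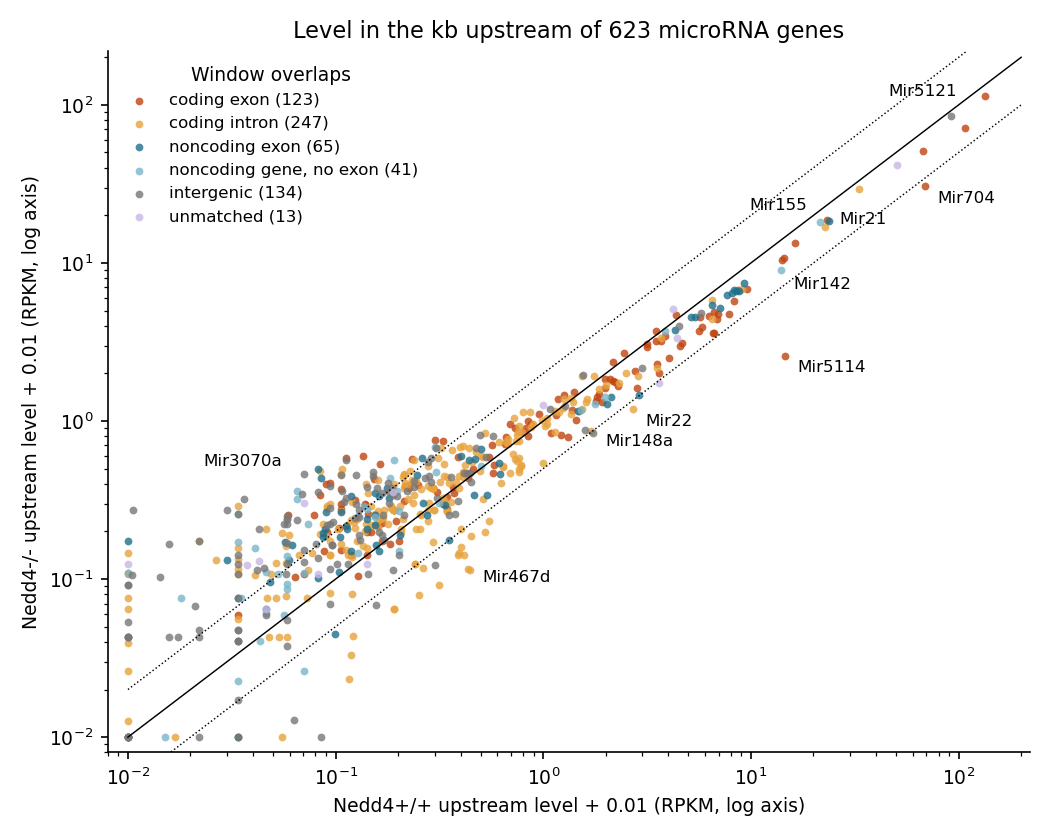
Upstream level of the 623 microRNA windows in the Nedd4+/+ library (horizontal axis) and the Nedd4-/- library (vertical axis), both in RPKM with 0.01 added and on log axes. Points are windows coloured by what they overlap in the GRCm38 annotation, the solid line marks equal levels and the dotted lines a 2-fold difference; low windows lie mostly above the line and high windows mostly below it, with Mir5114 and Mir704 well below.

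Several of the highest windows lay in strongly transcribed genes. Mir5121, in an exon of the ribosomal protein gene Rpl13a, had 133 and 114 RPKM. Mir677, in an intron of Atp5b, a subunit of ATP synthase, had 107 and 71.9 RPKM, and its window also covered Atp5b exon sequence. Mir682 had 91.7 and 84.6 RPKM with no annotated gene in its window, and its own hairpin row stood at 759 and 741 RPKM. Mir5107, in an exon of Cd74, the invariant chain of antigen presentation, had 67.4 and 51.3 RPKM. Mir5117 (50.4 and 41.7 RPKM) had no match in the annotation. Mir1949 had 33.3 and 29.5 RPKM, and Mir3069, within the noncoding gene Snhg10, 23.7 and 18.5. Near the level of those last windows came Mir3064 in Ddx5, an RNA helicase that assists Drosha, at 22.6 and 16.9 RPKM.

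Among microRNAs with known roles in lymphocytes, Mir21, Mir155 and Mir142 had the highest windows. Mir21, induced on lymphocyte activation and hosted by Vmp1, had 23.3 and 18.7 RPKM, with a log2 ratio of -0.32. All 1000 bases of its window were coding-gene exon, and Vmp1 itself stood at 23.1 and 17.1 RPKM. Messenger RNA of Vmp1 and the primary transcript of Mir21 cannot be told apart in this window. Ratios throughout are Nedd4-/- over Nedd4+/+ with 0.1 RPKM added, a scale that understates the difference of low windows. Exact Clopper-Pearson 95% intervals of the ratio, computed on recovered read pairs without the added 0.1, are given beside them. Such intervals describe the counting of reads alone: with no molecular identifiers, reads need not come from independent molecules. For Mir21 the interval was -0.47 to -0.17. Mir155, a microRNA required for normal antibody responses, had 21.6 and 18.0 RPKM (log2 ratio -0.26, interval -0.42 to -0.11). Mir142, a microRNA of blood cells, had 13.9 and 9.01 RPKM (-0.62, interval -0.84 to -0.42). All 3 were lower in the Nedd4-/- library by more than counting error, and none by 2-fold. The other windows at 5 RPKM and above had a median log2 ratio of -0.43, and 319 of 342 lay below 0. The intervals of Mir21 and Mir142 held that median, that of Mir142 at its edge, and the interval of Mir155 lay just above it. These lower levels were thus common to windows of such coverage and do not set these microRNAs apart.

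The other windows of this list, which leaves out the clusters described further on, were all under 5 RPKM. Mir191 had 4.34 and 4.67 RPKM and Mir425, from the same locus, 4.28 and 3.77. Mir146, induced by NF-kappaB and a brake on it, had 1.54 and 1.95 RPKM (log2 ratio 0.32, interval -0.19 to 0.87). Mir150, a microRNA of resting lymphocytes, had 1.59 and 0.870 RPKM (-0.80, interval -1.57 to -0.20). Mir148a, a microRNA that acts in B cell tolerance, had 1.72 and 0.830 RPKM (-0.97, interval -1.77 to -0.38), just short of 2-fold. Mir150 and Mir148a thus had lower Nedd4-/- windows beyond counting error, while the interval of Mir146 held 0. Other windows from 1 to 5 RPKM had a median log2 ratio of -0.24, which the interval of Mir150 held and that of Mir148a did not. Mir34a, a target of p53, had 1.27 and 1.23 RPKM. Mir181b-2, of a family that acts in lymphocyte development, had 0.853 and 1.12 RPKM. Over this list, 39 of the symbols were in the files and 29 reached the minimum. Of those, 2 passed 2-fold upward (Mir9-3 and Mir29b-2) and 1 downward (Mir22), against 19.8% and 0.794% of all windows with the minimum level. The median log2 ratio of the list was 0.06, against 0.41 over those windows. The median level of the list was 0.574 RPKM, against 0.353 over those windows, so neither comparison is matched for level. Mir29b-2 stood at 0.317 and 0.736 RPKM, and Mir9-3 at 0.180 and 0.559. Relative to the median of all windows neither passed 2-fold (log2 ratios of 0.59 and 0.82). By that measure the list had 0 windows upward and 6 downward, against 6.5% and 5.68% of all windows.

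**Figure D2:**
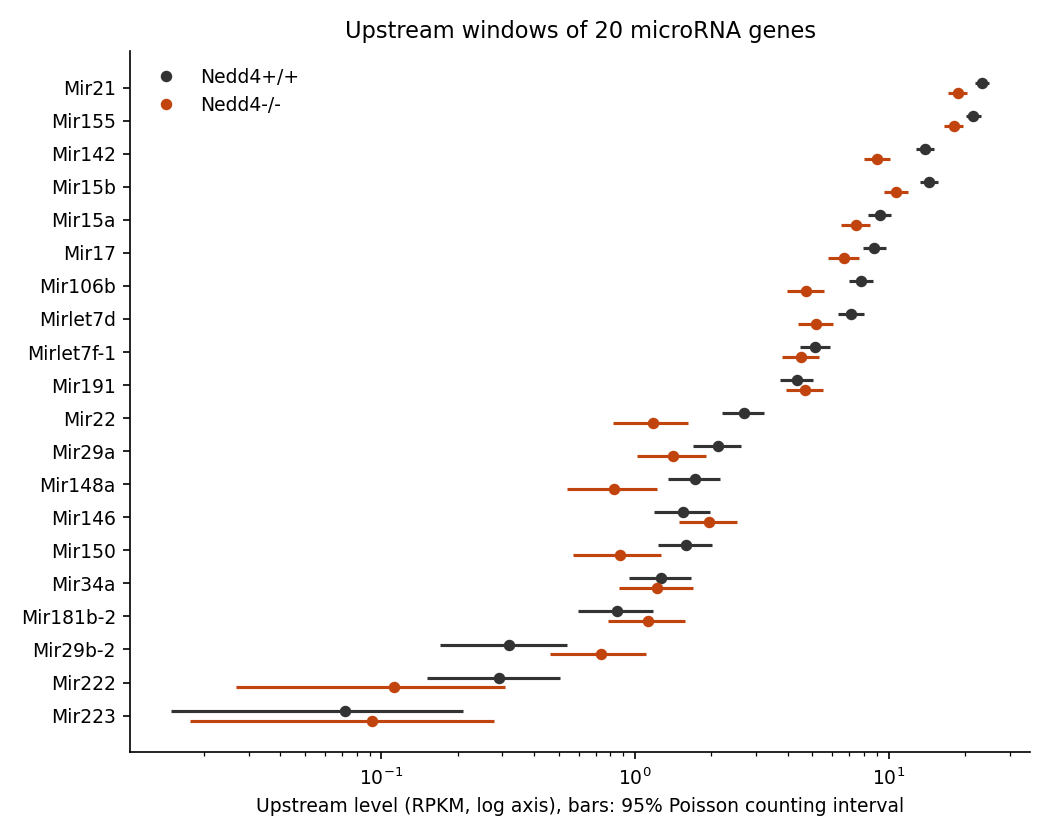
Upstream level in RPKM (log axis) of 20 microRNA windows in the Nedd4+/+ library (dark) and the Nedd4-/- library (red), with bars for exact 95% Poisson counting intervals. Mir21 and Mir155 lie near 20 RPKM in both libraries, Mir142, Mir148a and Mir150 are lower in the Nedd4-/- library, and Mir223, a microRNA of myeloid cells, lies at 0.0722 RPKM in the Nedd4+/+ library.

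Windows of the miR-17-92 family were covered from 3 clusters at unlike levels. On chromosome 14, the window of Mir17 had 8.77 and 6.67 RPKM (log2 ratio -0.39, interval -0.65 to -0.14). Mir18 had 8.50 and 6.60 RPKM, Mir19a 8.13 and 6.42, Mir20a 7.69 and 6.25, Mir19b-1 6.50 and 5.43, and Mir92-1 5.34 and 4.52. Levels went down along the order of the hairpins in both libraries. These windows overlap, so they share reads and are not 6 separate measurements. The relative on chromosome 5, in an intron of the replication helicase gene Mcm7, had 7.80 and 4.71 RPKM at Mir106b (-0.71, interval -1.02 to -0.44), 6.88 and 4.40 at Mir93, and 6.91 and 4.76 at Mir25. The window of Mir106b also held 253 bases of Mcm7 exon, and Mcm7 itself stood at 20.5 and 13.8 RPKM. The X-linked relative had 0.427 to 0.609 RPKM in Nedd4+/+ cells and 0.328 to 0.563 in Nedd4-/- cells over its 6 windows. All 15 members of the list reached the minimum, and their median log2 ratio was -0.36. None differed by 2-fold in either direction, against 19.8% of all windows higher and 0.794% lower. Those shares come mostly from weakly covered windows. At 1 RPKM and above, 0.503% of the other windows were higher and 1.71% lower. For the windows on chromosomes 14 and 5, the lack of such differences was thus usual at their level. From 0.5 to 1 RPKM, 7.34% of the other windows were higher and 1.14% lower.

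The symbol Mir17hg names the host transcript of the chromosome 14 cluster, and its window had 5.73 and 4.81 RPKM (log2 ratio -0.25, interval -0.56 to 0.05). The sequence around its annotated start in RefSeq (chr14:115044140-115044439, plus strand, GRCm38.p6, 250 bases before the start and 50 from it on) is shown because it holds microRNAs of the cluster. Capitals mark miR-20a-5p at bases 44 to 66 and miR-19b-3p at bases 219 to 241, counted from the first base shown. The window before this start therefore covered hairpins of the cluster and was no promoter in that annotation.
Mir17hg start: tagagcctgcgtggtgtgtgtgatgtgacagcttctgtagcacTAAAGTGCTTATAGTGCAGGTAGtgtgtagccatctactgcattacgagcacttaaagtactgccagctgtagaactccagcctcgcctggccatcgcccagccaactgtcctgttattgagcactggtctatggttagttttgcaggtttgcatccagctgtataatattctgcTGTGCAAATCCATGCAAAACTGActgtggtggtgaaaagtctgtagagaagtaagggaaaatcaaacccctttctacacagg

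The miR-15 and miR-16 clusters were well covered at 2 loci. In Smc4, a condensin subunit of dividing cells, Mir15b had 14.4 and 10.7 RPKM (log2 ratio -0.43, interval -0.63 to -0.23) and Mir16-2 14.1 and 10.5. Each of these windows held 177 bases of Smc4 exon, and Smc4 itself stood at 50.0 and 36.7 RPKM. Reads of Smc4 messenger RNA cannot be told apart there. In the noncoding gene Dleu2, Mir15a had 9.22 and 7.42 RPKM (-0.31, interval -0.56 to -0.07) and Mir16-1 8.24 and 6.72. The related Mir195 and Mir497 had only 0.211 and 0.351 RPKM, and 0.180 and 0.328. The Dleu2 windows had over 4 times the RPKM of the whole Dleu2 transcript, which stood at 1.89 and 1.53. Of the 8 list members in the files, 6 reached the minimum, with a median log2 ratio of -0.30. None of the 6 differed by 2-fold, against 19.8% of all windows higher and 0.794% lower. At 1 RPKM and above, only 0.503% of the other windows were higher and 1.71% lower. The lack of such differences was thus usual at the level of the Smc4 and Dleu2 windows.

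Among let-7 windows, the chromosome 13 cluster was highest. Mirlet7d had 7.12 and 5.16 RPKM (log2 ratio -0.46, interval -0.75 to -0.18), Mirlet7f-1 5.14 and 4.52, and Mirlet7a-1 3.85 and 3.71. Mirlet7f-2 and Mir98, in introns of the ubiquitin ligase gene Huwe1 on the X chromosome, had 2.86 and 1.91 RPKM (-0.56, interval -1.06 to -0.12) and 2.30 and 1.73 RPKM. Mirlet7g, in Wdr82, had 1.25 and 1.36 RPKM. Of the 15 members of this list, which includes the partners Mir98, Mir99 and Mir100, 10 reached the minimum; 1 was at least 2-fold higher (Mirlet7a-2, 0.0553 and 0.352 RPKM), none was 2-fold lower, and the median log2 ratio was -0.14. Over all windows 19.8% were 2-fold higher and 0.794% lower, with a median of 0.41. Nearer the level of most let-7 windows, the other windows from 1 to 5 RPKM had a median of -0.24. Of these, 0.547% were 2-fold higher and 1.09% lower. From 0.2 to 0.5 RPKM, the range of Mirlet7a-2, 28.3% of the other windows were higher. In the Mir23, Mir27 and Mir24 clusters, the chromosome 13 locus had 1.43 to 1.60 RPKM in Nedd4+/+ cells and 1.00 to 1.30 in Nedd4-/- cells. The chromosome 8 locus had 0.465 to 0.519 and 0.582 to 0.803 RPKM. None of these 6 windows differed by 2-fold, and their median log2 ratio was -0.07.

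Identical mature microRNAs often had loci with very unequal windows. Among the members with a mature sequence at hand, 39 mature sequences were shared by several loci. For 8 of them exactly 1 locus reached a mean of 1 RPKM over both libraries, for 3 several loci did, and for 28 none did. The sequence of miR-7a-5p is made from Mir7-1, in Hnrnpk, with a mean level of 14.8 RPKM, and from Mir7-2, with 0.201. The loci of miR-19b-3p had means of 5.97 and 0.529 RPKM, those of miR-92a-3p 4.93 and 0.427, and those of miR-29b-3p 1.64 and 0.527. For miR-16-5p both loci were well covered, at 12.3 and 7.48 RPKM, as were those of let-7f-5p, at 4.83 and 2.39, and of miR-103-3p, at 3.34 and 2.41. These are levels of primary or host transcripts, and the share of mature RNA from each locus was not measured.

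Between genotypes, the direction of the difference depended on the level of the window. Over the 372 members with the minimum level, the median log2 ratio was 0.09, with the central 90% between -0.83 and 1.23. Over all 11837 windows with that level it was 0.41. A difference of 2-fold or more was found upward in Nedd4-/- cells for 33 members (8.87%), against 19.8% of all windows, and downward for 10 (2.69%), against 0.794%. Relative to the median of all windows, 13 members passed upward and 36 downward, against 6.5% and 5.68% of all windows. Levels of members and of the other windows were not alike: 121 of the 372 members (mean of 1 RPKM or more) belonged to the well covered windows, against 1988 of 11465 others.

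At equal level, members and other windows had close medians from 0.5 RPKM up. With a mean of 5 RPKM or more, all 39 members had a log2 ratio below 0, with a median of -0.39, and the 342 other windows had a median of -0.43. From 1 to 5 RPKM the medians were -0.27 over 82 members and -0.24 over the others, and from 0.5 to 1 RPKM 0.11 and 0.17. From 0.2 to 0.5 RPKM they were 0.40 over 186 members and 0.67 over the others. In that lowest range 31 members (16.7%) were at least 2-fold higher, against 28.3% of the other windows. At least 2-fold lower were 6 members (3.23%), against 0.38% of the others. No member with a mean of 1 RPKM or more was 2-fold higher, against 0.503% of the other windows at that level. Lower by 2-fold were 4 (3.31%), against 1.71% of the others. Of these 121 members 104 had a ratio below 0, as had 1552 of the 1988 others. The lower read depth and higher floor of low windows in the Nedd4-/- library moved with this pattern, and their part in it was not tested.

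**Figure D3:**
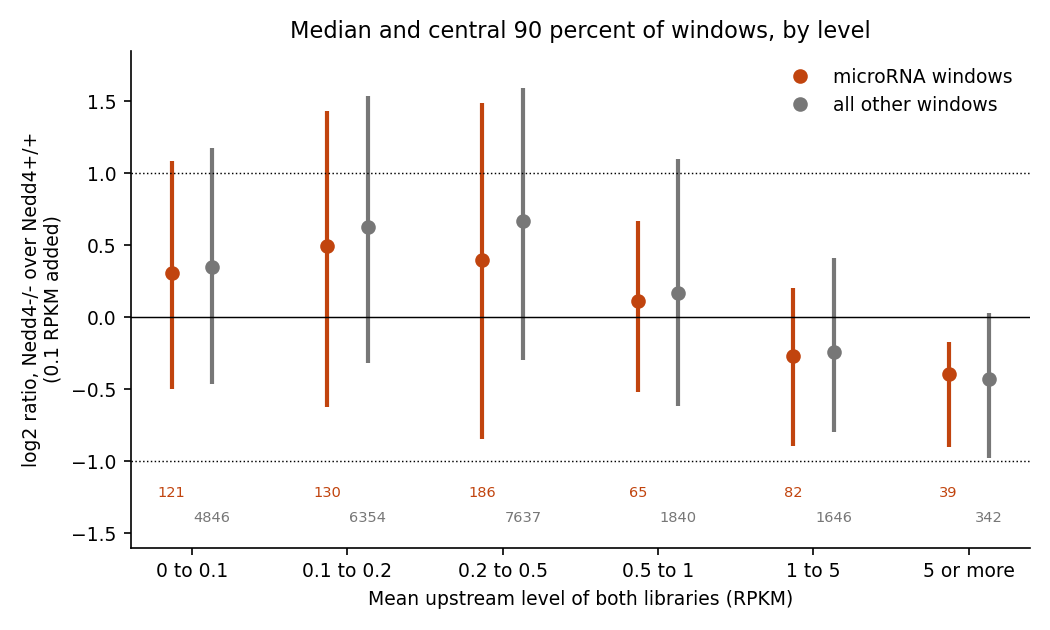
Log2 ratio of the upstream level, Nedd4-/- over Nedd4+/+ with 0.1 RPKM added, by the mean level of the window in RPKM. Points are medians and bars the central 90% of microRNA windows (red) and all other windows (grey), with the number of windows below each bar; the medians of both sets go from above 0 under 1 RPKM to -0.39 and -0.43 at 5 RPKM or more.

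The 10 members past the 2-fold rule in the lower direction came from 7 groups of genes within 1 kb of each other, and 4 of them had a mean of 1 RPKM or more. Mir5114, in an exon of Scd2, a desaturase that makes monounsaturated fatty acids, had 14.6 and 2.58 RPKM (log2 ratio -2.45, interval -2.85 to -2.16). Scd2 itself stood at 55.3 and 11.4 RPKM (-2.18, with 1 RPKM added as for all genes here). Mir704, in an exon of Pdia4, a disulfide isomerase of the endoplasmic reticulum, had 68.9 and 30.7 RPKM (-1.17, interval -1.28 to -1.06), and Pdia4 stood at 255 and 112 (-1.18). For both, the window held exon sequence of the host, and window and host differed by nearly the same ratio. Reads in that exon can also count in the host's RPKM, so this likeness is no separate support. Mir22, whose window overlaps the transcripts Mir22hg and Tlcd2, had 2.69 and 1.17 RPKM (-1.13, interval -1.78 to -0.64). Mir3096b had 3.61 and 1.72 RPKM (-1.03, interval -1.55 to -0.61), while the window of Mir3096, on the opposite strand of the same chromosome, had 4.21 and 5.11. Neither Mir3096b nor Mir3096 had a match in the annotation.

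The other 6 lower windows had 0.377 to 0.517 RPKM in Nedd4+/+ cells and 0.104 to 0.188 in Nedd4-/- cells. Mir467d and Mir466 lie in an intron of Sfmbt2, and Mir3092 in an intron of Fndc3b. Mir302a, Mir302c and Mir367, microRNAs of embryonic stem cells, have windows that overlap each other and introns of Larp7, which runs on the opposite strand. Their windows share reads, and without a known strand setting reads of Larp7 cannot be told apart. Their intervals came close to 0 or held it (Mir302a -3.65 to -0.01, Mir367 -3.57 to 0.11). In all, 8 of the 10 lower windows had an interval below 0. They were picked by the ratio of the same reads, so this is no separate support.

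The 33 windows past the rule in the higher direction were all weakly covered. They ranged from 0.0553 to 0.317 RPKM in Nedd4+/+ cells and from 0.316 to 0.750 in Nedd4-/- cells, and the highest mean was 0.527. The interval lay above 0 in 28 of them, but the windows were picked by the ratio of the same reads, so this is no separate support. Other windows from 0.2 to 0.5 RPKM had a median log2 ratio of 0.67, not 0. The 10 highest ratios rested on 2.30 to 5.23 read pairs in the Nedd4+/+ library and 10.7 to 18.0 in the Nedd4-/- library. Among them were Mir3070a (0.0601 and 0.450 RPKM, log2 ratio 1.78, interval 0.94 to 5.64) and Mir143, a microRNA of smooth muscle (0.0722 and 0.489, 1.77, interval 0.94 to 5.19). Mir338 had 0.103 and 0.571 RPKM, Mir200b, a microRNA of epithelia, 0.0743 and 0.475, and Mir499, hosted by the muscle myosin gene Myh7b, 0.126 and 0.590. The others were Mir665, Mir7b, Mir455, Mirlet7a-2 and Mir218-2. No measured host of the 33 reached 1 RPKM: 17 had a measured host, below that level, and 16 had no host with a measured level.

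MicroRNAs that mark cells other than B cells made up 8 of these 33. Of 49 such members in the files, 31 reached the minimum, 8 passed upward (25.8%, against 19.8% of all windows) and 3 downward (against 0.794%), and the median log2 ratio was 0.54, against 0.41. Most of these windows were low, and among other windows from 0.2 to 0.5 RPKM 28.3% passed upward with a median of 0.67. Relative to the median of all windows 5 passed upward and 4 downward, against 6.5% and 5.68% of all windows. The highest were Mir126, a microRNA of endothelium hosted by Egfl7, with 2.21 and 1.76 RPKM, and Mir128-1, a microRNA of neurons hosted by R3hdm1, with 1.01 and 0.918. Mir451, a microRNA of erythroid cells, had 0.271 and 0.440 RPKM. Summed levels of T cell, myeloid and natural killer cell genes were also higher in the Nedd4-/- library, and those of erythroid and stromal genes were not. Among the T cell, myeloid and natural killer cell genes, only Lck (1.41 and 1.08 RPKM), Cd68 (1.07 and 0.913) and Itgam (0.411 and 0.367) were lower. In the erythroid and stromal sums, only Hba-a1 (1.74 and 0.897 RPKM), Hbb-b1 (0.633 and 0.380) and Pecam1 (2.145 and 1.25) were lower. The other erythroid, megakaryocyte, stromal and endothelial markers were each higher in the Nedd4-/- library. The floor of low windows was also higher in the Nedd4-/- library. The part of such cells in these windows, and of that floor in the sums, was not tested.

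Clusters with many hairpins stayed low. Between Dlk1 and Dio3 on chromosome 12, an imprinted region, lie 58 members with medians of 0.101 and 0.234 RPKM. Of these, 20 reached the minimum, all 20 had a ratio above 0, with a median of 0.82, and 9 were at least 2-fold higher, against 19.8% of all windows and 28.3% of other windows from 0.2 to 0.5 RPKM, whose median was 0.67. Relative to the median of all windows, 2 of the 20 passed upward, against 6.5% of all windows. The highest Nedd4+/+ level among the 58 was 0.229 RPKM. The minimum was thus reached mainly by windows with a higher Nedd4-/- level. The shared sign of the 20 was largely set by that filter and is no separate result. The imprinted gene Sfmbt2 holds 42 members, which ranged from 0.105 to 0.632 RPKM in Nedd4+/+ cells and from 0.0548 to 0.660 in Nedd4-/- cells. Of these, 34 reached the minimum, and the median log2 ratio was 0.28. None was 2-fold higher and 2 (5.88%) were 2-fold lower, against 19.8% and 0.794% of all windows. Many Sfmbt2 hairpins are near copies of each other, and how reads with several matches were assigned is not known from the labels, so values of single copies are uncertain. The 71 X-linked members gave 23 with the minimum level, none of which differed by 2-fold, with a median log2 ratio of -0.37. Over all windows 19.8% were higher and 0.794% lower, and over autosomal members 9.46% and 2.87%. The median level of the 23 was 0.529 RPKM, against 0.353 over all windows with the minimum level. The shares over all windows are therefore not matched for level. Relative to the median of all windows, 0 of the 23 passed upward and 4 downward, against 6.5% and 5.68% of all windows.

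What the window overlapped went along with its level. In the GRCm38 annotation, 405 members lay within another gene on the same strand, 300 of them in a coding gene and 105 in a noncoding one, 205 lay in none and 13 could not be matched. The 123 windows with at least 100 bases of coding exon had median levels of 0.812 and 0.828 RPKM. The 247 other windows within coding genes had 0.241 and 0.281 RPKM, and the 134 intergenic windows 0.0868 and 0.218. Of windows with the minimum level, 11 of 100 with coding exon passed 2-fold upward and 2 downward. Among those in introns the counts were 6 and 7 of 159, and among intergenic ones 11 and 0 of 54. The shares over all windows were 19.8% and 0.794%. Relative to the median of all windows the counts turned to 4 upward and 13 downward with coding exon, 3 and 15 in introns, and 3 and 3 among intergenic windows. The shares over all windows were then 6.5% and 5.68%. Of the 100 windows with coding exon, 57 had a mean of 1 RPKM or more, where ratios were mostly below 0.

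Windows were then set beside their coding host where the host had a mean of 1 RPKM or more. With exon sequence in the window (64 windows), the window held a median of 37.2% of the host's RPKM (first quartile 25.6%). With under 100 exon bases (80 windows), it held 14.2% (first quartile 8.82%). Across windows, level and host level had a Spearman correlation of 0.69 with exon and 0.42 without. The log2 ratio of window and host had one of 0.63 over 61 windows with exon and 0.25 over 78 without. Without Mir5114 and Mir704 the value with exon was 0.60. Windows share the libraries and in part their hosts, so these are descriptions. The signs of window and host ratio were alike in 49 of 61 windows with exon and in 39 of 78 without. Host ratios lay below 0 in 61 of 61 and 74 of 78. An example was Mir33, in an intron of Srebf2 but with exon sequence in its window. Srebf2 is the regulator of sterol synthesis genes with which miR-33 acts on cholesterol. Its window had 4.52 and 2.97 RPKM (log2 ratio -0.59, interval -0.98 to -0.24), where Srebf2 stood at 14.4 and 8.17 (-0.75).

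**Figure D4:**
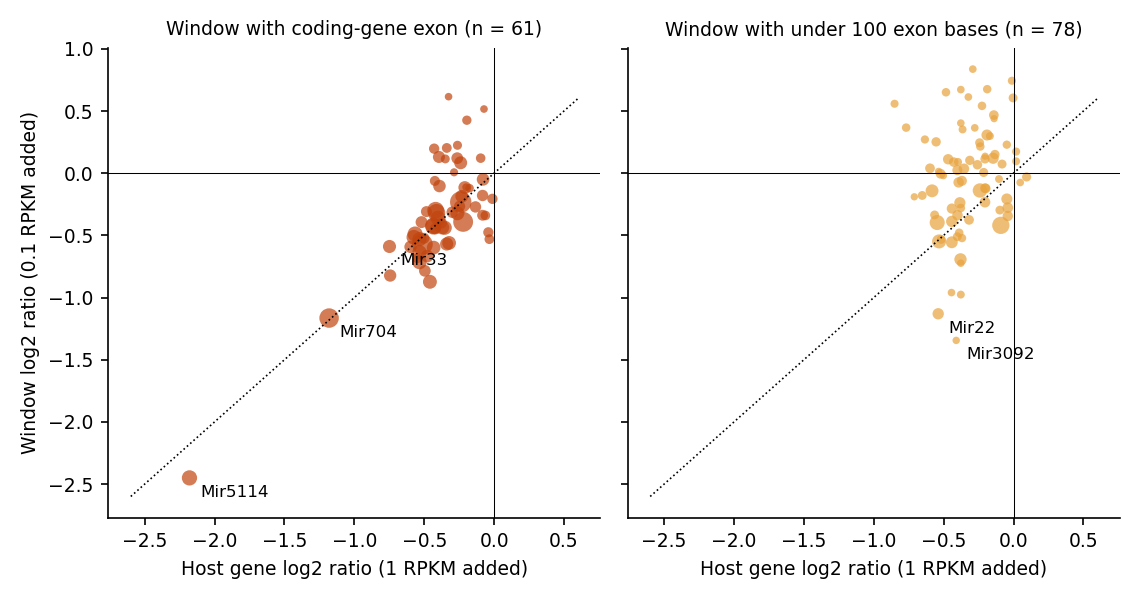
Log2 ratio of the window (vertical axis, 0.1 RPKM added) against that of its coding host gene (horizontal axis, 1 RPKM added), for 61 windows with coding-gene exon (left) and 78 with under 100 exon bases (right), hosts with a mean of 1 RPKM or more. Point area grows with the mean window level and the dotted line marks equal ratios; Mir5114 and Mir704 lie near that line at the lower left, and the windows on the right scatter around 0.

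The hairpin rows themselves gave another readout of the same loci. Their RPKM is per length of a short hairpin. Over 621 members without the host transcripts, hairpin and window level had Spearman correlations of 0.71 and 0.62. Of the hairpins, 70 were listed at 0 in both libraries, none of them with a window of 1 RPKM or more, and 16 had a mean of 10 RPKM or more. The hairpin was above the window in 132 of 370 members. The hairpin of Mir5114 had 68.1 and 15.6 RPKM and that of Mir704 51.9 and 21.7, lower in the Nedd4-/- library like their windows. Other hairpins went against their windows: that of Mir155 had 4.52 and 5.94 RPKM, that of Mir17 1.24 and 2.79, and that of Mir15a 3.47 and 3.82. A hairpin (65 nt for Mir155) rests on far fewer reads than a 1 kb window of the same RPKM. No counting interval was computed for hairpins, so these opposite directions are not shown to exceed counting error. The hairpin of Mir21 had 3.40 and 1.11 RPKM, far under its window of 23.3 and 18.7.

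Genes that make and use microRNAs were measured in the gene RPKM. Of 48 symbols listed, some of them older and newer names of 1 gene, 40 were in the files and 35 had a mean of 1 RPKM or more. None was 2-fold higher and none 2-fold lower, against 0.138% and 1.15% of all 9405 genes at that level, and the median log2 ratio was -0.35 against -0.31 for all genes. In the nucleus, Drosha stood at 3.22 and 2.43 RPKM (log2 ratio -0.30), its partner Dgcr8 at 8.59 and 7.17 (-0.23) and the exporter Xpo5 at 14.5 and 10.8 (-0.39). Dicer1 stood at 5.79 and 4.45 RPKM (-0.32). Of the Argonautes, Eif2c2, the gene of Argonaute 2, was highest, at 6.08 and 4.68 RPKM (-0.32), followed by Eif2c1 at 3.04 and 2.70 and Eif2c3 at 1.57 and 1.40, and Eif2c4 did not reach 1 RPKM. The largest ratios before centring were those of Tsnax (-0.68), which with Tsn forms a nuclease that helps activate the Argonaute complex, the RNA-binding protein Khsrp (-0.64), the RNA editor Adar (-0.58), Srrt (-0.57), which links the cap-binding complex to Drosha, the exonuclease Xrn2 (-0.52) and the uridylyltransferase Zcchc6 (-0.50). Relative to the median of all genes, 15 of the 35 lay above and 20 below. The member farthest from that median was Prkra, which encodes a partner of Dicer1, at 0.806 and 1.26 RPKM (log2 ratio 0.32, relative 0.64). Tsnax lay at -0.37 relative to it.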

How the data were processed

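RNA-seq values of 1 Nedd4+/+ and 1 Nedd4-/- library were used as the authors deposited them. Per the submitters' processing notes, TopHat, Cufflinks and the mouse build mm9 were used, without versions. Whether strand was used, and how reads with several matches were treated: not given in the sources used here. The gene values are RPKM, per the file headers. The deposited upstream column is a ratio of the window's level to the gene's RPKM plus 0.0001, as the values show. Its product with that RPKM gave whole read bases, within 0.05 bases, in 99.99% of 19058 low windows of the Nedd4+/+ library and 100% of 20180 of the Nedd4-/- library, against 9.79% and 10.1% without the product. This product is the upstream level. The design had named the level, and no test changed. Depth and read pairs (202 bases) were recovered from the same steps.

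Windows were compared as log2 ratios with 0.1 RPKM added, among those with a mean level of at least 0.2 RPKM, and genes with 1 RPKM added, among those with a mean of 1 RPKM or more. A fixed rule of 2-fold was used and no p-value computed. The labels name no separate cultures or animals within a genotype. Of the members, 614 were matched by accession to the GRCm38 annotation, 4 of these lay on another chromosome than in the files, and the 610 placed ones were given hosts from it. GRCm38 served for names, hosts and neighbours only, and coordinates printed belong to its sequences. A mature sequence was at hand in RefSeq (GRCm38.p6) for 528 members and a hairpin for 503. The scripts, tested on simulated data, used Python 3.11.15, pandas 2.3.3, numpy 2.4.6, scipy 1.17.1 and matplotlib 3.10.9.

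Named were the 20 highest windows (1 per group within 1 kb), the 10 highest and 10 lowest ratios, members of the B cell and cluster lists with the minimum level, the highest windows of the list of other cells, the 6 largest ratios among pathway genes and the core enzymes. From these, 102 in number for windows, the text gives the ones that show the range. Windows and genes outside this rule (Mir223, Mir3096, Mir33, Prkra and the loci of miR-103) were chosen after their values were seen. The members and lists were chosen with earlier results of these data known. Alternatives changed the added value, the minimum, the centring, the fold and the grouping of neighbours.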

Additional observations from a re-analysis of the deposited data

How the results depend on the processing

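The count of members at least 2-fold higher (33) was 0 with 0.5 RPKM added, 63 with no minimum level, 2 and 0 with a minimum mean of 0.5 and 1 RPKM, 13 relative to the median of all windows, 81 at 1.5-fold and 65 with the deposited column as it stands. The count at least 2-fold lower (10) was 2 with 0.5 RPKM added, 4 and 4 with a minimum of 0.5 and 1 RPKM, 36 relative to the median, 6 with 1 window per group of neighbours, 36 at 1.5-fold and 105 with the deposited column. The median log2 ratio (0.09) was 0.23 with no minimum, and it turned to -0.24 and -0.32 with a minimum of 0.5 and 1 RPKM, to -0.32 relative to the median and to -0.19 with the deposited column. The 372 windows with the minimum level were 186 at 0.5 RPKM. The other settings kept the higher count between 26 and 44, the lower count between 12 and 15 and the median between 0.05 and 0.10, and the count of pathway genes was 0 throughout. The minimum shows by its own construction that the sign of the median follows the levels kept. Of the 102 named windows, none reversed its call. With 0.5 RPKM added 20 no longer passed 2-fold, with 0.05 RPKM 3 more passed, and relative to the median 7 more passed and 2 no longer did. No paired analysis was possible because each genotype has 1 library. Depth limits low windows: at 0.2 RPKM a window rests on few read pairs, and 1 pair is worth 0.0241 and 0.0328 RPKM.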
